A study of Mus musculus with 64 samples.

Results

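Calb1, Calb2, Pcp4 and Calml4 are 4 mouse genes whose proteins bind calcium or set how calmodulin handles it. They were taken by name: every probe set annotated to 1 of them was used, in every tissue and stage of the series. These are 4 of 12393 genes with a probe set of their own on the array, and the array carries 5 such probe sets among 22626, 2 for Calb1 (1417504_at and 1448738_at) and 1 each for Calb2 (1451129_at), Pcp4 (1460214_at) and Calml4 (1424713_at). Inner ear epithelium of CBA/J embryos was profiled at half-day steps from E9 to E15 on 58 arrays in 29 groups, and tissue next to the ear on 6 arrays in 3 groups. The inner ear groups are the otic placode at E9, the vesicle at E9.5 and E10, the cochlea from E10.5 to E15, the vestibular organ at 4 stages up to E12, and the saccule and the utricle, dissected with its 3 ampullae, from E12.5 to E15. The surrounding tissue was taken at E9 and as pools of E9.5 to E10.5 and of E11 to E15. Every group has 2 arrays, each made from a pool of dissected tissues, and the 2 pools came from different litters. All embryos were of the same strain with no engineered allele or treatment named, pools held 6 to 17 tissues where the labels give a number, and the vestibular region was taken without the endolymphatic duct.

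Calcium enters hair cells through mechanotransduction and voltage-gated channels, and buffer proteins with EF-hands, the helix-loop-helix fold that holds a calcium ion, shape how far and how long it spreads. Calbindin, made from Calb1, and calretinin, made from Calb2, are the classical EF-hand buffers of the ear and are widely used as labels of hair cells and of ganglion neurons. Calmodulin is the shared sensor that turns calcium into changes of enzyme and channel activity. Pcp4 encodes a small protein with an IQ motif that binds calmodulin and changes how fast calcium goes on and off it. Calml4 encodes a calmodulin-like protein known from human intestinal cells as a light chain of an unconventional myosin in the brush border.

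The RefSeq promoter table of build GRCm38.p6 held 2 of the 4 genes, Pcp4 and Calml4. The 250 bases before their annotated starts are shown for reference. Capitals mark the E-box motif CANNTG, which is its own reverse complement.
Pcp4, chr16:96467356-96467605, plus strand: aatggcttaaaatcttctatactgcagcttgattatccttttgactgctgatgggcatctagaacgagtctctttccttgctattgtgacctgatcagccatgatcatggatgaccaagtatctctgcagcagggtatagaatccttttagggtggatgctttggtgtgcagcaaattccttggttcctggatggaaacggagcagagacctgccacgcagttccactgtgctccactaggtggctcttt
Calml4, chr9:62857854-62858103, plus strand: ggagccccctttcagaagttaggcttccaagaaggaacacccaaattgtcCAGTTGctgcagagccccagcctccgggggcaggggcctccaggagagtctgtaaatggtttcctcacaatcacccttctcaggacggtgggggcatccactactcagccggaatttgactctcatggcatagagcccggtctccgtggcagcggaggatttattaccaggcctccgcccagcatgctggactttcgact
The Calml4 window holds 1 E-box, 200 bases before the start, and the Pcp4 window holds 0; 66.2% of 32851 windows of the same length hold this motif. AGATAA, found in 10.0% of windows, and TATAAA, found in 12.4%, were searched on both strands and are in neither. The G and C content was 46.8% for Pcp4 and 57.6% for Calml4, against a median of 52.4% over all windows.

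Values are probe set signals, a measure of brightness, after quantile normalisation across arrays, and the lowest value on every array is 10, a floor that held 5.43 to 12.0% of the values of an array. A signal of a probe set can be compared between arrays but not with another probe set. Differences are in log2(signal + 16), which understates the change of dim probe sets, and were fitted with limma over all 64 arrays and 32 groups. The words higher, lower, rose and fell are kept for an adjusted p below 0.05, taken over 14014 tested probe sets, together with a change of at least 1 log2. A trend is the fitted line over the stages of an organ, given as its change over the whole window. The 2 arrays of a group correlated at 0.942 to 0.991 over all probe sets, and their number limits the precision of any single stage. The p-values reflect the variation between the 2 pools of a group. Whether pools of different organs at a stage share litters was not settled, and the main fit does not pair them. In bulk tissue, fewer cells of a type and less RNA per cell cannot be told apart.

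Of the 5 probe sets, 4 passed the filter of 2 arrays at or above their array's median, and each passed through the groups where it was high. Calb1 1417504_at reached its array's median on 9 of 64 arrays, Pcp4 on 20, Calml4 on 39 and Calb2 on 45. The other Calb1 probe set, 1448738_at, was at the floor on 52 of 64 arrays with a highest signal of 19.5 in the cochlea at E12.5. Tested without the filter, its differences ran from -0.26 to 0.09 log2 with a smallest adjusted p of 0.0617, so the course of Calb1 below rests on 1417504_at alone and the 2 probe sets disagree.

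Most markers of the otic epithelium followed the labels, though not all. At E11 to E15, 9 of 11 tested were higher in the inner ear than in the surrounding tissue and 0 lower, and of 14 mesenchyme markers 0 were higher and 12 lower, where 15.5% of all probe sets were called. Epcam, an epithelial adhesion gene, had signals of 76.1 to 305.5 in the cochlea, 117.1 to 218.0 in the vestibular organ, 134.5 to 277.3 in the saccule and 226.8 to 346.2 in the utricle with ampullae, against 10.0 to 14.4 in the surrounding tissue. Otog, a gene of the acellular membranes of the ear, had 1772.0 to 9847.7 in the cochlea, against 11.8 to 85.8 in the surrounding tissue. Dlx5, an otic transcription factor gene, did not separate them, with 38.8 to 81.8 in the cochlea, against 39.0 to 73.6 in the surrounding tissue. The mesenchyme marker Lum reached 5227.3 in the cochlea, against at most 2176.3 in the surrounding tissue, and the summed mesenchyme signal was 1073 to 9192 in the cochlea, 2427 to 4533 in the saccule and 2118 to 4283 in the utricle with ampullae, against 4097 to 18825. The part of mesenchyme in the results was not tested. The summed signal of the 13 measured hair cell markers of 23 listed was 958 to 2583 in the cochlea, 1406 to 11882 in the saccule and 853 to 7584 in the utricle with ampullae, against 663 to 977 in the surrounding tissue. Gfi1, a hair cell transcription factor gene, was at the floor on 16 of 20 cochlea arrays and on all 6 arrays of surrounding tissue, and Atoh1, which starts hair cell formation, was at the floor on 3 cochlea arrays and 1 array of surrounding tissue. Both were above the floor on all 24 arrays of saccule and of utricle with ampullae. Not every hair cell marker behaved this way. Cdh23 had 83.7 to 120.4 in the surrounding tissue, against 47.5 to 95.6 in the cochlea and 42.4 to 75.7 in the saccule. Pou4f3 was above the floor on every array, with 14.4 to 64.7 in the surrounding tissue. Otof had 35.9 to 87.1 there, against 25.5 to 66.8 in the cochlea, though it reached 422.0 in the saccule.

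Calb1 signal parted the late organs. It rose both in the cochlea and in the utricle with ampullae between E12.5 and E15, reached its highest signals of the series in the E15 cochlea, and showed no such course in the saccule. Before E12 it was dim in every tissue: the placode arrays had 15.1 and 17.9, and the vesicle arrays had 14.4 and 22.3 at E9.5 and 15.2 and 13.8 at E10.
The cochlea had 24.1 and 10.0 at E10.5, 10.0 and 10.0 at E11, 17.5 and 18.9 at E11.5, 25.2 and 31.7 at E12, and 29.3 and 28.8 at E12.5. It then had 47.2 and 45.9 at E13, 65.1 and 40.4 at E13.5, 85.8 and 51.4 at E14, 169.2 and 129.8 at E14.5, and 1038.1 and 927.7 at E15. From E14.5 on no cochlea array overlapped the stages before it, and the E15 arrays stood far above all others.
The vestibular organ lay between 10.0 and 21.7 on its 8 arrays. The saccule stayed between 10.0 and 17.7 on its 12 arrays, with 12.0 and 15.3 at E15. The utricle with ampullae had 19.2 and 23.2 at E12.5, 17.0 and 21.4 at E13, 75.8 and 48.8 at E13.5, 66.9 and 139.4 at E14, 202.6 and 183.2 at E14.5, and 255.8 and 254.3 at E15. The saccule arrays lay below those of the utricle with ampullae at every stage, and the cochlea and the utricle with ampullae overlapped at E13.5 and E14. In order of level, the E15 cochlea came first, then the utricle with ampullae at E15 and E14.5 and the cochlea at E14.5, and from there down to the cochlea at E13 the arrays of neighbouring groups overlapped.

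Fitted over E10.5 to E15, Calb1 rose in the cochlea by 3.92 log2 (SE 0.16, adjusted p = 1.65e-22, 20 arrays). Within E10.5 to E12 the change was 0.53 (SE 0.22, adjusted p = 0.0657), and within E12.5 to E15 it rose by 3.83 (SE 0.19, adjusted p = 1.44e-18, 12 arrays). The fitted change was -0.29 in the vestibular organ (SE 0.22, adjusted p = 0.394) and 0.05 in the saccule (SE 0.19, adjusted p = 0.884), while Calb1 rose by 3.23 in the utricle with ampullae (SE 0.19, adjusted p = 3.16e-16, 12 arrays). The cochlea and the utricle with ampullae did not pass as different in trend (0.60, SE 0.27, adjusted p = 0.171). The cochlea's trend was higher than the saccule's by 3.78 (SE 0.27, adjusted p = 4.3e-13), and the saccule minus utricle difference in trend was -3.18 (SE 0.27, adjusted p = 1.09e-10).

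Much of the cochlear course lay in its last step. Between E14.5 and E15, a comparison chosen after the values were seen, Calb1 was higher at E15 in the cochlea by 2.60 (SE 0.23, adjusted p = 2.84e-10, 2 arrays against 2). With the spread taken from these 4 arrays alone, where no probe set of 14014 was called, the adjusted p was 0.127. The same step was -0.04 in the saccule (SE 0.23, adjusted p = 0.95) and 0.38 in the utricle with ampullae (SE 0.23, adjusted p = 0.522).

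**Figure D1:**
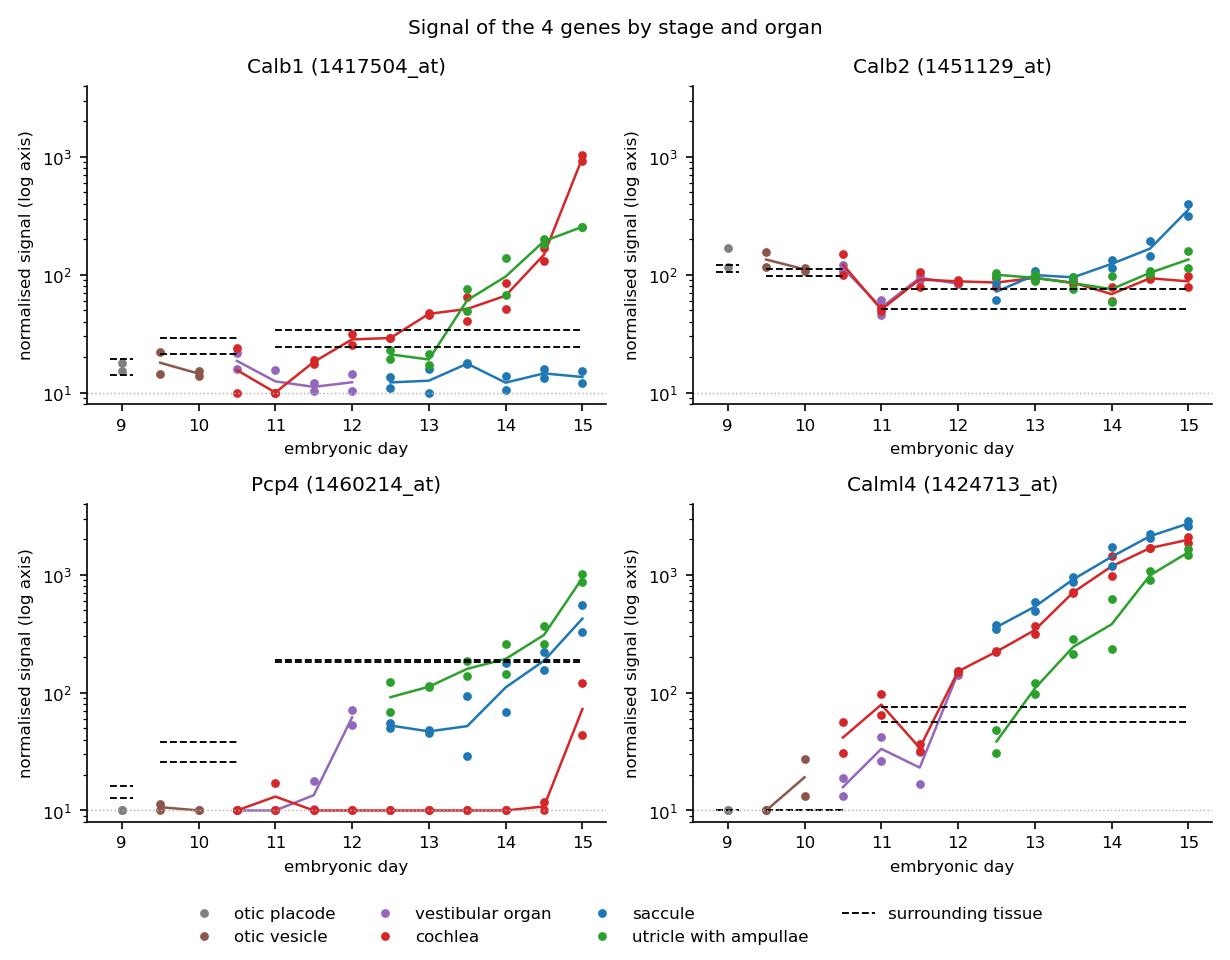
Normalised signal (log axis) of the 4 tested probe sets on each of the 64 arrays against embryonic stage in days, coloured by tissue, with lines through the geometric mean of the 2 arrays of each group and dashed black lines for the surrounding tissue over the stages it was pooled from. Calb1 ends at 1038.1 and 927.7 in the cochlea and stays at or below 17.7 in the saccule, Calb2 reaches 317.6 and 402.2 in the saccule, Pcp4 is at the floor of 10 in most early groups, and Calml4 climbs in all late organs.

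Calb2 was above the floor in every sample and passed in no trend outside the saccule. It rose in the saccule between E12.5 and E15, where the last stage held the highest signals of the series. The placode had 116.2 and 167.8, and the vesicle had 116.7 and 155.2 at E9.5 and 108.2 and 114.2 at E10.
The cochlea had 99.3 and 149.9 at E10.5, 52.5 and 48.9 at E11, 79.0 and 105.0 at E11.5, and 90.9 and 85.1 at E12, and from E12.5 to E15 it stayed between 59.4 and 98.4, with 78.5 and 98.4 at E15. The vestibular organ had 120.3 and 108.0 at E10.5, 45.2 and 61.4 at E11, 98.3 and 90.4 at E11.5, and 83.4 and 84.4 at E12. The 4 arrays of E11 cochlea and vestibular organ were among the lowest for Calb2. Those arrays also had the largest share of all values at the floor, 9.81 to 12.0%, against at most 8.63% on the other arrays, and the part of this in the low signals was not tested.
The saccule had 61.4 and 84.3 at E12.5, 91.0 and 108.5 at E13, 94.5 and 95.7 at E13.5, 114.3 and 134.0 at E14, 192.0 and 144.4 at E14.5, and 317.6 and 402.2 at E15. Its E15 arrays were above its E14.5 arrays, and these were above all its earlier ones. The utricle with ampullae had 97.6 and 102.5 at E12.5, 88.0 and 100.6 at E13, 75.4 and 95.3 at E13.5, 97.8 and 58.2 at E14, 106.6 and 101.2 at E14.5, and 158.7 and 114.5 at E15. At E15 it lay below both saccule arrays and above both cochlea arrays, and apart from the E15 saccule the arrays of neighbouring groups in the order of levels overlapped.

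Calb2 rose in the saccule by 1.82 log2 over E12.5 to E15 (SE 0.17, adjusted p = 4.85e-11, 12 arrays). The fitted change was -0.02 in the cochlea over the same window (SE 0.17, adjusted p = 0.953), -0.14 in the vestibular organ over E10.5 to E12 (SE 0.19, adjusted p = 0.679) and 0.30 in the utricle with ampullae (SE 0.17, adjusted p = 0.172). The difference itself passed: the cochlea minus saccule difference in trend was -1.84 (SE 0.24, adjusted p = 6.52e-07), and the saccule's trend was higher than that of the utricle with ampullae by 1.52 (SE 0.24, adjusted p = 6.21e-05). The E15 minus E14.5 step of Calb2 was -0.07 in the cochlea (SE 0.20, adjusted p = 0.901) and 0.33 in the utricle with ampullae (SE 0.20, adjusted p = 0.526). Between E14.5 and E15 it was higher at E15 in the saccule by 1.03 (SE 0.20, adjusted p = 0.00256, 2 arrays against 2). That step was 0.85 without replicate 2 of E14.5 (adjusted p = 0.136) and 0.87 without replicate 2 of E15 (adjusted p = 0.101), so it rested on both second replicates, and its adjusted p was 0.0994 with the spread taken from the 4 arrays alone.

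The summed signal of the hair cell markers, on which bright probe sets weigh most, was larger at E15 than at E12.5 in all 3 organs. In the cochlea it was 2583 and 1802 at E15, against 1106 and 1295 at E12.5. In the saccule it was 9474 and 11882 at E15, against 1643 and 1406 at E12.5. In the utricle with ampullae, where Calb2 did not pass, it was 7584 and 5910 at E15, against 853 and 1046 at E12.5. Of the 13 markers 5 rose in the cochlea, 9 in the saccule and 8 in the utricle with ampullae, and 0 fell in any, where 6.17%, 7.08% and 7.59% of all probe sets were called in these organs. They were led in the saccule by Smpx (6.12 log2, SE 0.25) and Gfi1 (4.38, SE 0.18). The summed signal of the 17 measured ganglion neuron markers of 23 listed was 7217 and 8227 at E15 in the saccule, against 7473 and 4289 at E12.5. The part of these cell types in the Calb2 course, and in the courses of Pcp4 and Calml4 given next, was not tested.

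Over E12.5 to E15 Pcp4 was lower in the cochlea than in the saccule or the utricle with ampullae. It was at the floor on 25 of 64 arrays: on both placode arrays, on all but 1 of the 4 vesicle arrays, where it was 11.4, and on all cochlea arrays from E10.5 to E14.5 but 2, which had 17.2 at E11 and 11.7 at E14.5. The E15 cochlea had 119.7 and 44.0.
The vestibular organ had 10.0 on all 4 arrays of E10.5 and E11, 17.8 and 10.2 at E11.5, and 71.3 and 53.4 at E12. The saccule had 55.2 and 50.1 at E12.5, 48.2 and 45.6 at E13, 93.5 and 28.9 at E13.5, 68.5 and 179.0 at E14, 223.4 and 155.8 at E14.5, and 328.4 and 549.5 at E15. The utricle with ampullae had 122.7 and 68.2 at E12.5, 113.1 and 111.6 at E13, 185.0 and 137.2 at E13.5, 142.9 and 261.1 at E14, 365.4 and 261.3 at E14.5, and 1014.2 and 872.5 at E15.
From E12 to E14.5 every cochlea array was below every array of the other organs of its stage. At E15 the 3 organs did not overlap, with the cochlea lowest and the utricle with ampullae highest, while the saccule and the utricle with ampullae overlapped at E14.

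Pcp4 rose by 1.48 log2 in the vestibular organ over E10.5 to E12 (SE 0.31, adjusted p = 0.00074, 8 arrays), by 2.77 in the saccule over E12.5 to E15 (SE 0.27, adjusted p = 2.26e-10, 12 arrays) and by 2.86 in the utricle with ampullae (SE 0.27, adjusted p = 1.52e-10, 12 arrays). Because the first vestibular stages are at the floor, the vestibular value depends on the pseudocount, and it was 0.71 at a pseudocount of 64. In the cochlea it rose by 1.30 over E12.5 to E15 (SE 0.27, adjusted p = 0.000377), which was 0.67 at a pseudocount of 64, and that call rests on E15: it was 0.88 without replicate 1 of the E15 cochlea. Over the whole cochlear window the change was 0.83 (SE 0.23, adjusted p = 0.00208), under 1 log2, and without replicate 2 of the E15 cochlea it was 1.12 (adjusted p = 0.000118).
The cochlea's trend was lower than that of the utricle with ampullae by 1.56 (SE 0.39, adjusted p = 0.0084) and lower than the saccule's by 1.47 (SE 0.39, adjusted p = 0.00975). Without replicate 2 of the E15 cochlea the differences were -1.14 (adjusted p = 0.104) and -1.05 (adjusted p = 0.0955), and without replicate 2 of the E15 saccule the second was -1.21 (adjusted p = 0.0599). At a pseudocount of 1 they were -1.05 (adjusted p = 0.188) and -1.13 (adjusted p = 0.146), so neither call held on that scale, and with only its own groups in the fit the second had an adjusted p of 0.0754. The saccule and the utricle with ampullae did not pass as different in trend (-0.09, SE 0.39, adjusted p = 0.933).

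Between E14.5 and E15 Pcp4 was higher at E15 in all 3 organs, by 1.75 in the cochlea (SE 0.33, adjusted p = 0.000443), 1.12 in the saccule (SE 0.33, adjusted p = 0.0414) and 1.56 in the utricle with ampullae (SE 0.33, adjusted p = 0.00682). Each of these calls needed particular arrays. In the cochlea the adjusted p was 0.0608 without replicate 1 of E15. In the saccule it was 0.0795 without replicate 1 of E14.5, 0.434 without replicate 2 of E14.5 and 0.441 without replicate 2 of E15. In the utricle with ampullae it was 0.215 without replicate 2 of E14.5 and 0.126 without replicate 1 of E15. With only the 4 arrays of a step in the fit it was 0.187 in the cochlea and 0.129 in the saccule.

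Calml4 climbed in every organ. At E12.5 it was highest in the saccule, next in the cochlea and lowest in the utricle with ampullae, and by E15 all 3 were bright. It was at the floor in the placode, in the E9.5 vesicle and in the surrounding tissue before E11, 8 of 64 arrays in all, and the E10 vesicle had 27.5 and 13.3.
The cochlea had 56.7 and 30.5 at E10.5, 97.6 and 64.2 at E11, 36.3 and 31.7 at E11.5, 153.8 and 149.5 at E12, and 221.9 and 223.9 at E12.5. It had 367.1 and 315.1 at E13, 720.9 and 701.5 at E13.5, 969.0 and 1438.3 at E14, 1698.7 and 1677.5 at E14.5, and 2111.7 and 1868.1 at E15. No array from E12 on overlapped an earlier one, and each later stage lay above the stage before it.
The vestibular organ had 13.2 and 18.9 at E10.5, 42.4 and 26.2 at E11, 31.6 and 16.9 at E11.5, and 142.3 and 152.0 at E12. The saccule had 346.8 and 373.9 at E12.5, 494.8 and 583.4 at E13, 961.8 and 872.5 at E13.5, 1183.7 and 1710.8 at E14, 2209.9 and 2051.5 at E14.5, and 2611.7 and 2849.6 at E15. The utricle with ampullae had 30.6 and 48.4 at E12.5, 120.7 and 97.8 at E13, 282.6 and 212.1 at E13.5, 232.5 and 622.5 at E14, 1081.3 and 908.7 at E14.5, and 1649.3 and 1466.7 at E15.
The saccule arrays were above the arrays of the utricle with ampullae at every stage, and above the cochlea arrays at every stage except E14, where they overlapped. At E14 the second replicate was the higher in all 3 organs.

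Calml4 rose in the cochlea by 5.72 log2 over E10.5 to E15 (SE 0.19, adjusted p = 1.13e-25, 20 arrays), the largest fitted change among the 4 genes. It rose by 1.09 over E10.5 to E12 (SE 0.25, adjusted p = 0.00121), which was 0.81 without replicate 2 of E10.5 (adjusted p = 0.0681) and 0.81 within E11 to E12, the stages of 1 enzyme digestion time. It rose by 3.26 over E12.5 to E15 (SE 0.22, adjusted p = 1.34e-14). The rise was 2.02 in the vestibular organ over E10.5 to E12 (SE 0.25, adjusted p = 1.99e-07), 2.98 in the saccule (SE 0.22, adjusted p = 1.58e-13) and 4.84 in the utricle with ampullae (SE 0.22, adjusted p = 1.26e-19).
The utricle with ampullae, the lowest at E12.5, had the steepest course. The cochlea minus utricle difference in trend was -1.58 (SE 0.32, adjusted p = 0.000977) and the saccule minus utricle difference was -1.86 (SE 0.32, adjusted p = 0.00019). The cochlea and the saccule did not pass as different (0.29, SE 0.32, adjusted p = 0.649). From E14.5 to E15 Calml4 passed in none of the 3 organs, with differences of 0.23 in the cochlea (SE 0.26, adjusted p = 0.705), 0.36 in the saccule (SE 0.26, adjusted p = 0.526) and 0.64 in the utricle with ampullae (SE 0.26, adjusted p = 0.274).

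**Figure D2:**
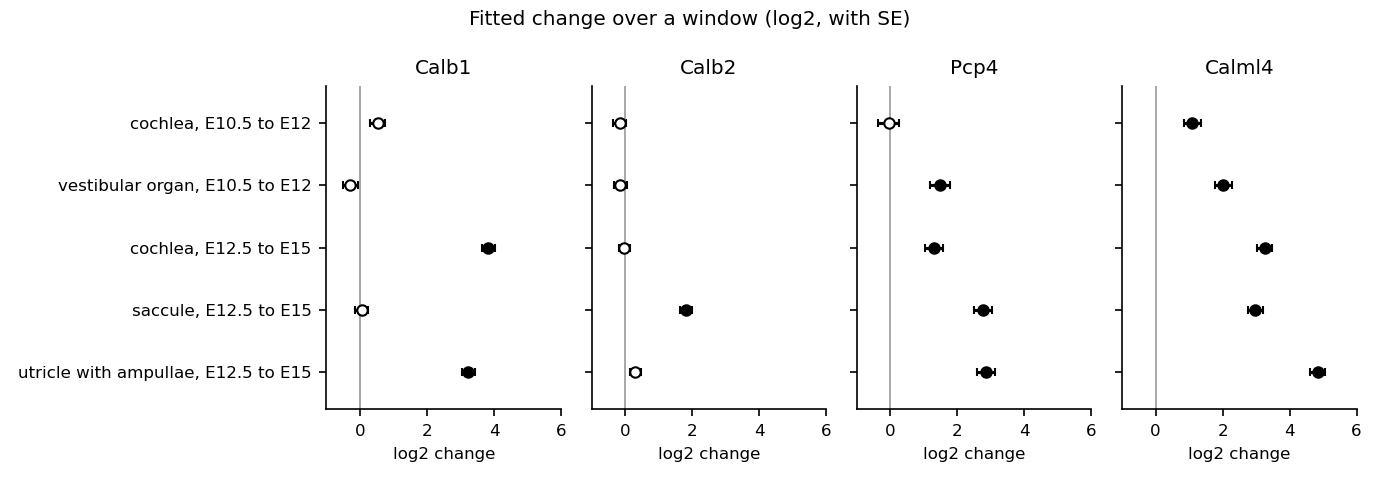
Fitted change in log2(signal + 16) of each gene over 5 windows, with bars of 1 SE; filled points passed (adjusted p below 0.05 and at least 1 log2). Calml4 passed in every window, Pcp4 in the later windows of all organs and in the vestibular organ, Calb1 in the late cochlea and in the utricle with ampullae, and Calb2 in the saccule alone of these 5 windows.

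The counts of risen members can be set beside those of the whole table, as a description, since the 4 genes were picked with earlier results known. Over E12.5 to E15, 3 of the 4 tested member probe sets rose in the cochlea, where 6.17% of all probe sets were called in either direction, 3 of 4 in the saccule, where 7.08% were, and 3 of 4 in the utricle with ampullae, where 7.59% were. Over E10.5 to E12, 1 of 4 rose in the cochlea, where 7.39% were called, and 2 of 4 rose in the vestibular organ, where 4.07% were. Over the whole cochlear window 2 of 4 rose, where 15.5% were called. The digestion with dispase was longer from E11 on, so the E10.5 arrays differ from later ones in handling as well as stage. Within E11 to E15 the cochlear trends were 4.03 for Calb1 and 5.35 for Calml4, and within E11 to E12 the vestibular trends were 1.58 for Pcp4 and 1.72 for Calml4. Within E11 to E12 Calb2 was at 0.64 in the cochlea (limma adjusted p = 0.0201), against -0.17 over E10.5 to E12. In the vestibular organ it was at 0.54 (adjusted p = 0.0727), against -0.14. Calb1 in the cochlea was at 0.77 (adjusted p = 0.0138), against 0.53. These were under 1 log2, and the windows start at the E11 arrays, which had the largest share of values at the floor.

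The organs differed in level as well as in course. Averaged over E12.5 to E15, Pcp4 was lower in the cochlea than in the saccule or the utricle with ampullae. Calb1 was higher in the cochlea than in the saccule and lower in the saccule than in the utricle with ampullae, and Calml4 was higher in the cochlea and in the saccule than in the utricle with ampullae. Calb2 passed in none of the 3 pairs.
For the cochlea minus the utricle with ampullae (12 arrays against 12), the Pcp4 difference was -2.86 log2 (SE 0.13, adjusted p = 9.21e-21) and the Calml4 difference was 1.30 (SE 0.11, adjusted p = 6.18e-13), so 2 of 4 members passed where 2.90% of all probe sets did. Calb1 was at 0.33 (SE 0.09, adjusted p = 0.00512) and Calb2 at -0.16 (SE 0.08, adjusted p = 0.145).
For the cochlea minus the saccule, Calb1 was at 1.98 (SE 0.09, adjusted p = 1.69e-20) and Pcp4 at -1.94 (SE 0.13, adjusted p = 2.34e-15), again 2 of 4 members, where 3.78% of all probe sets passed. Calb2 at -0.55 (SE 0.08, adjusted p = 5.59e-07) and Calml4 at -0.45 (SE 0.11, adjusted p = 0.000618) were under 1 log2.
For the saccule minus the utricle with ampullae, Calb1 was at -1.64 (SE 0.09, adjusted p = 6.57e-18) and Calml4 at 1.75 (SE 0.11, adjusted p = 1.07e-16), 2 of 4 members where 2.53% passed. The Calb1 difference was -0.96 at a pseudocount of 64. Pcp4 was at -0.92 (SE 0.13, adjusted p = 4.78e-07), just under 1 log2, and it was past it without replicate 1 of the E13.5 saccule (-1.03) or without replicate 2 of the E14 saccule (-1.02). These 3 comparisons share arrays.

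Between the cochlea and the vestibular organ at E10.5 to E12 (8 arrays against 8), 0 of 4 members passed, where 1.31% of all probe sets did. Calml4 was at 0.55 (SE 0.13, adjusted p = 0.0021), Pcp4 at -0.40 (SE 0.16, adjusted p = 0.07), Calb1 at 0.18 (SE 0.11, adjusted p = 0.257) and Calb2 at 0.02 (SE 0.10, adjusted p = 0.934).
The trends of these early organs also gave 0 of 4 members, where 0.842% of probe sets passed. Pcp4 came nearest, at -1.54 (SE 0.44, adjusted p = 0.0898), with an adjusted p of 0.00974 with only the groups of the comparison in the fit and 0.0108 at a pseudocount of 1. Calml4 was at -0.92 (SE 0.36, adjusted p = 0.357) and Calb1 at 0.81 (SE 0.30, adjusted p = 0.329).
For the late organs the share of all probe sets that differed in trend was 4.05% for the cochlea minus the utricle with ampullae, with 2 of 4 members, 4.84% for the cochlea minus the saccule, with 3 of 4, and 1.97% for the saccule minus the utricle with ampullae, with 3 of 4. The values stand with each gene above.

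**Figure D3:**
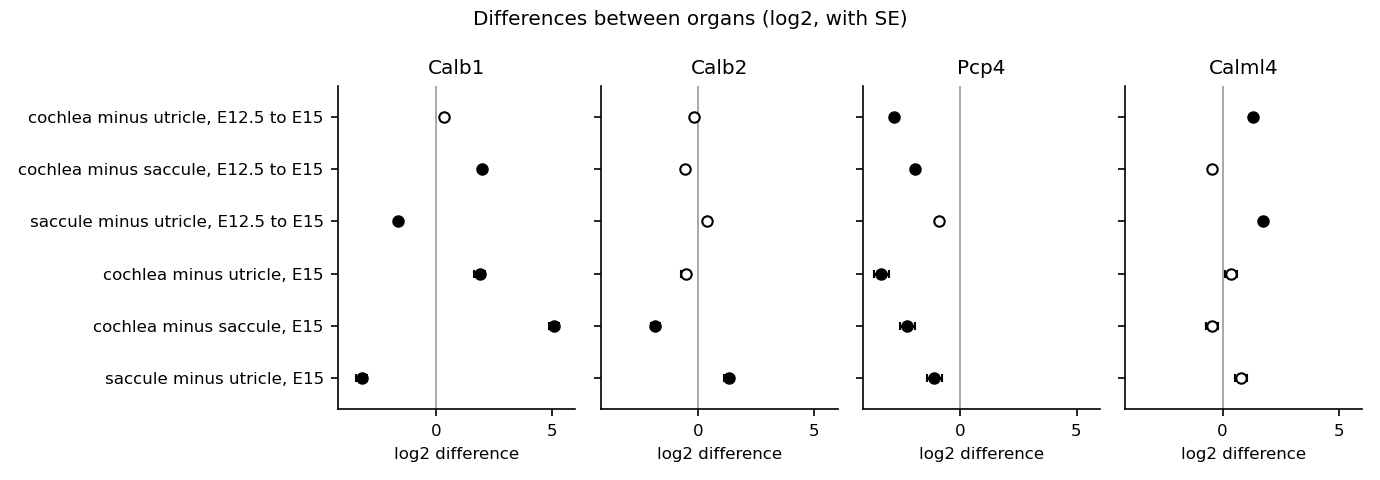
Difference between organs in log2(signal + 16) of each gene, as the mean over E12.5 to E15 (upper 3 points, 12 arrays against 12) and at E15 alone (lower 3 points, 2 against 2), with bars of 1 SE from the fit over all arrays; filled points passed. The cochlea minus saccule difference of Calb1 reaches 5.07 at E15, and the cochlea minus utricle difference of Pcp4 is -3.41 at E15.

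At E15, the last stage, which was singled out after its values were seen, each organ had its own combination of the 4 genes. The cochlea was high in Calb1, and the saccule in Calb2. Pcp4 was highest in the utricle with ampullae, which had an intermediate Calb1, and was also bright in the saccule, at 328.4 and 549.5. Calml4 was at 1466.7 or above in all 3. Each E15 comparison sets 2 arrays against 2.
In the cochlea minus the utricle with ampullae, Calb1 was at 1.88 (SE 0.23, adjusted p = 4.34e-08) and Pcp4 at -3.41 (SE 0.33, adjusted p = 1.47e-10), so 2 of 4 members passed where 4.66% of all probe sets did. Calb2 was at -0.54 (SE 0.20, adjusted p = 0.0797) and Calml4 at 0.35 (SE 0.26, adjusted p = 0.459).
In the cochlea minus the saccule, Calb1 was at 5.07 (SE 0.23, adjusted p = 9.74e-20), Calb2 at -1.84 (SE 0.20, adjusted p = 3.59e-09) and Pcp4 at -2.29 (SE 0.33, adjusted p = 1.03e-06), 3 of 4 members where 7.59% passed. With only these arrays in the fit the Pcp4 adjusted p was 0.0514. Calml4 was at -0.45 (SE 0.26, adjusted p = 0.226).
In the saccule minus the utricle with ampullae, Calb1 was at -3.19 (SE 0.23, adjusted p = 7.21e-14), Calb2 at 1.31 (SE 0.20, adjusted p = 1.19e-05) and Pcp4 at -1.12 (SE 0.33, adjusted p = 0.0303), 3 of 4 members where 2.80% passed. With only these arrays in the fit the adjusted p was 0.0582 for Calb2 and 0.123 for Pcp4. The Pcp4 call was also lost without replicate 1 of the E15 saccule (-0.76, adjusted p = 0.594), replicate 1 of the E15 utricle with ampullae (-1.01, adjusted p = 0.247) or its replicate 2 (-1.22, adjusted p = 0.106).
For the last step itself, E15 minus E14.5, 2 of 4 members were higher in the cochlea, where 1.78% of all probe sets were called, 2 of 4 in the saccule, where 0.892% were, and 1 of 4 in the utricle with ampullae, where 0.514% were.

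In the surrounding tissue 2 of the 4 genes were higher in the pool of E11 to E15 than at E9. In that late pool only Pcp4 reached its array's median. Calb2 reached it on 2 of 2 arrays at E9 and on 2 of 2 in the pool of E9.5 to E10.5. At E9 the arrays of surrounding tissue were at 14.2 and 19.2 for Calb1, 106.4 and 121.7 for Calb2, 12.7 and 16.1 for Pcp4, and 10.0 and 10.0 for Calml4. In the pool of E9.5 to E10.5 they were at 29.3 and 21.4 for Calb1, 112.6 and 98.0 for Calb2, 25.8 and 38.4 for Pcp4, and 10.0 and 10.0 for Calml4. In the pool of E11 to E15 they were at 24.4 and 34.2 for Calb1, 51.1 and 76.3 for Calb2, 183.8 and 189.6 for Pcp4, and 56.2 and 74.9 for Calml4.
Pcp4 in the late pool was above every inner ear array up to E12, and Calml4 was within the range of the early cochlea. Against the E9 tissue, the E11 to E15 pool was higher for Pcp4 by 2.74 (SE 0.33, adjusted p = 6.53e-09) and for Calml4 by 1.64 (SE 0.26, adjusted p = 2.74e-06), 2 of 4 members, where 20.8% of all probe sets were called. Both E9 arrays are at the floor for Calml4, so its value depends on the pseudocount, and it was 0.80 at a pseudocount of 64. Calb2 was at -0.72 (SE 0.20, adjusted p = 0.00302) and Calb1 at 0.47 (SE 0.23, adjusted p = 0.0883).

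At E9 the placode and its surroundings gave 0 of 4 members, where 6.04% of all probe sets were called: Calb1 was at -0.01 (SE 0.23, adjusted p = 0.995), Calb2 at 0.26 (SE 0.20, adjusted p = 0.373) and Pcp4 at -0.22 (SE 0.33, adjusted p = 0.676), while Calml4 was at the floor on both sides. At E9.5 to E10.5 (8 inner ear arrays against 2) it was again 0 of 4, where 8.09% were called. Pcp4 was at -0.86 (SE 0.26, adjusted p = 0.00916), and leaving out replicate 1 of that tissue gave -1.06 (adjusted p = 0.0291).
At E11 to E15 (48 inner ear arrays against 2), Calml4 was higher in the inner ear by 2.00 (SE 0.19, adjusted p = 2.16e-11) and Pcp4 was at -1.58 (SE 0.23, adjusted p = 4.06e-07), 2 of 4 members, where 15.5% of all probe sets were called. The Pcp4 value averages organs whose own levels lie far apart and was -0.95 at a pseudocount of 64. Calb2 was at 0.47 (SE 0.15, adjusted p = 0.00589) and Calb1 at 0.22 (SE 0.16, adjusted p = 0.251).
The 17 ganglion neuron markers summed to 3545 and 3281 in the E15 cochlea, against 23205 and 22189 in the late pool of surrounding tissue. The 8 measured hindbrain and glia markers of 13 listed summed to 927 and 583 in the E15 cochlea, against 11069 and 11855 in that pool. Over all stages the hindbrain and glia sum was 467 to 2737 in the cochlea, 1805 to 3431 in the saccule and 691 to 1413 in the utricle with ampullae. The part of neural tissue in the Pcp4 signal of the surrounding tissue was not tested.
From placode to vesicle (E10 minus E9, 2 arrays against 2) 0 of 4 members passed, where 5.42% of all probe sets did. Calml4 was at 0.46 (SE 0.26, adjusted p = 0.221), Calb2 at -0.29 (SE 0.20, adjusted p = 0.313) and Calb1 at -0.09 (SE 0.23, adjusted p = 0.816), and Pcp4 was at the floor in both groups.

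**Figure D4:**
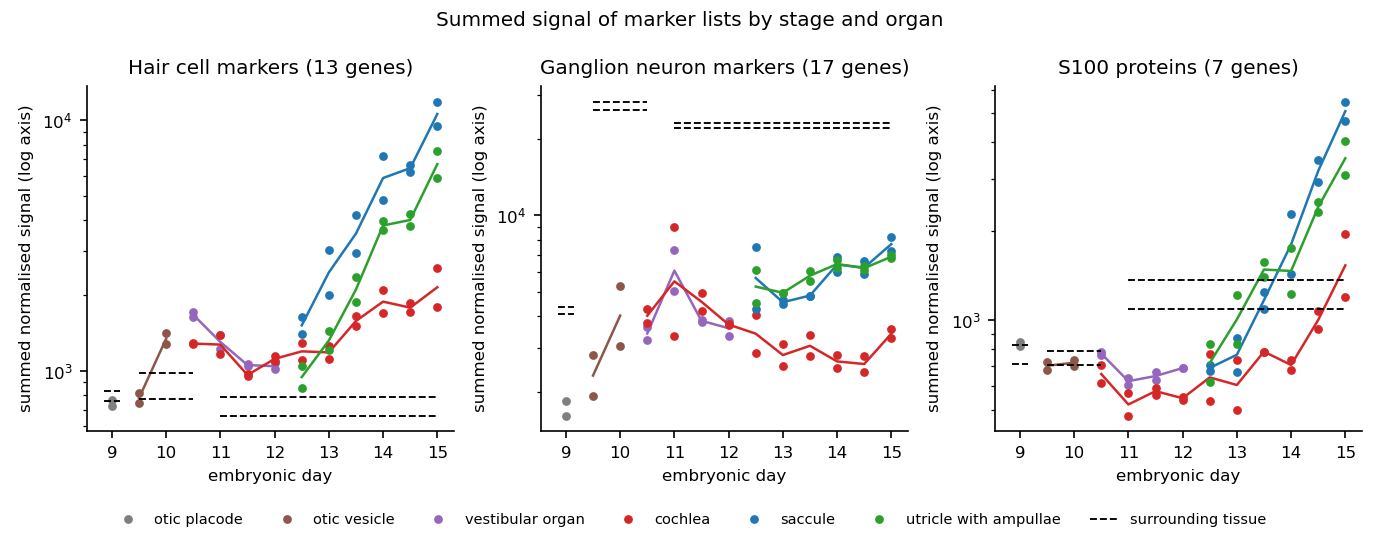
Summed normalised signal (log axis) of the measured hair cell markers, ganglion neuron markers and S100 genes on each array against embryonic stage in days, coloured by tissue as in the plot of the 4 genes. The hair cell sum reaches 11882 in the saccule and 7584 in the utricle with ampullae and stays at or below 2583 in the cochlea, and the ganglion neuron sum is 23205 and 22189 in the late pool of surrounding tissue.

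The other genes of calcium handling were read from 4 lists. They were EF-hand buffers and sensors (28 tested of 44), S100 proteins (7 tested of 16), calmodulin with its binding proteins, kinases and phosphatase (28 tested of 47) and calcium pumps, channels and exchangers (26 tested of 39), and some genes of the calmodulin list are hair cell or neuron markers too. As for the 4 genes, the share of all probe sets called over E12.5 to E15 was 6.17% in the cochlea, 7.08% in the saccule and 7.59% in the utricle with ampullae, and a list whose called share lies near these is no result about the list. In the cochlea over E12.5 to E15, 3 of 28 EF-hand genes rose and 0 fell, with a median of 0.01 log2 against -0.01 over all probe sets: Efhd1, a mitochondrial EF-hand gene (3.98, SE 0.20), Nucb1 (1.55, SE 0.36) and Rcn3 (1.03, SE 0.23). In the saccule 8 rose and 1 fell, with a median of 0.25 against -0.03 over all probe sets, among them Efhd1 (1.77, SE 0.20), Nucb1 (1.67, SE 0.36), Cabp2, a calmodulin-like modulator of hair cell calcium channels (1.60, SE 0.17), and Sdf4 (1.35, SE 0.17). In the utricle with ampullae 7 rose and 0 fell, with a median of 0.36 against -0.03, among them Nucb1 (2.31, SE 0.36), Cib1 (2.15, SE 0.28), Cabp2 (2.14, SE 0.17) and Caln1 (1.32, SE 0.21). Efhd1 was higher in the cochlea than in the saccule by 1.54 (SE 0.10) and than in the utricle with ampullae by 1.50 (SE 0.10).

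Several S100 genes, which encode small EF-hand proteins, rose in all 3 late organs. S100b rose by 2.32 in the cochlea (SE 0.21), 4.70 in the saccule (SE 0.21) and 3.10 in the utricle with ampullae (SE 0.21), and S100a1 rose by 1.30, 3.97 and 3.41 in the same organs (SE 0.27 each). Of the 7 tested, 3 rose in the cochlea, 4 in the saccule and 4 in the utricle with ampullae, and 0 fell in any, with medians of 0.58, 1.57 and 1.09 log2 against -0.01, -0.03 and -0.03 over all probe sets. The called shares over all probe sets were 6.17%, 7.08% and 7.59%. S100b, like Pcp4, was lower in the cochlea than in the saccule (-2.45, SE 0.10) and the utricle with ampullae (-2.18, SE 0.10).

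Genes of the calmodulin list were called near the background share in the cochlea and above it in the saccule and the utricle with ampullae. In the cochlea over E12.5 to E15, 2 of 28 rose and 0 fell, near the background of 6.17%: the kinase gene Camk1d (1.67, SE 0.27) and Ush1c, a scaffold gene of the hair bundle (1.04, SE 0.24). Ush1c, and Myo7a below, are also in the hair cell list, and Gap43 is in the ganglion neuron list. In the saccule, with a background of 7.08%, 3 rose and 1 fell: Myo7a, an unconventional myosin gene (2.32, SE 0.24), Ush1c (1.89, SE 0.24) and the kinase gene Camk1 (1.01, SE 0.20) rose, and Marcks fell by 1.37 (SE 0.22). In the utricle with ampullae, with a background of 7.59%, 5 rose and 2 fell, among them Ush1c (2.78, SE 0.24), Myo7a (1.71, SE 0.24), Camk1 (1.31, SE 0.20) and the neuronal growth gene Gap43, which fell by 1.45 (SE 0.29). The list medians were 0.02 in the cochlea, -0.18 in the saccule and 0.14 in the utricle with ampullae.
Of the 26 pumps and channels, 3 rose and 0 fell in the cochlea, where 6.17% of all probe sets were called, namely the potassium-dependent exchanger gene Slc24a3 (1.58, SE 0.16), the calcium release channel gene Itpr2 (1.42, SE 0.22) and the channel subunit gene Cacna2d1 (1.35, SE 0.19). In the saccule, where 7.08% were, 3 rose and 0 fell: Itpr2 (1.77, SE 0.22), Slc24a3 (1.36, SE 0.16) and Cacna1d, the calcium channel of hair cell synapses (1.23, SE 0.18). In the utricle with ampullae 2 rose and 0 fell, Itpr2 (1.31, SE 0.22) and Trpv4 (1.25, SE 0.23), which is at the background of 7.59%. The list medians were 0.07 in the cochlea, 0.02 in the saccule and 0.06 in the utricle with ampullae. Atp2b2, the plasma membrane pump of hair bundles, was higher in the saccule than in the utricle with ampullae by 1.14 (SE 0.11).
Over E10.5 to E12, 7.39% of all probe sets were called in the cochlea and 4.07% in the vestibular organ. Calls in the calmodulin list, with 28 genes tested, were above these shares in both organs. So were those in the S100 list, with 7 tested, on 1 gene in each organ. Channel calls, with 26 tested, were above the share in the vestibular organ. The calmodulin calls included the neuron marker Gap43 in both organs and the hair cell marker Myo7a in the cochlea. The cochlea had 1 of 28 EF-hand genes up and 1 down, 1 S100 gene up and 0 down, 3 calmodulin genes up and 2 down, and 1 channel gene up and 0 down. The vestibular organ over the same stages had 1 EF-hand gene up and 0 down (Necab2 at 1.67, SE 0.36), 1 S100 gene up and 0 down (S100b at 1.66, SE 0.23), 2 calmodulin genes up and 1 down, and 2 channel genes up and 0 down.
Between the inner ear and its surroundings at E11 to E15, where 15.5% of all probe sets were called, 3 EF-hand genes were higher and 3 lower in the inner ear, and 3 calmodulin genes were higher and 7 lower, with the largest negative differences in Gap43 (-4.72, SE 0.25) and Camk1d (-2.60, SE 0.23). Of the 26 pumps and channels 3 were higher and 0 lower, under the background share, led by Atp2a1 (2.97, SE 0.23).

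Across the 29 inner ear group means, which share arrays, normalisation and stage order, the 4 genes had courses of their own. Pearson correlations between them ran from -0.09 for Calb1 with Calb2 to 0.57 for Pcp4 with Calml4, with 0.51 for Calb1 with Calml4, 0.43 for Calb2 with Pcp4, 0.35 for Calb1 with Pcp4 and 0.23 for Calb2 with Calml4. The genes with the pattern most like Calb1 were Anxa1 (0.89), Enpep (0.89), Npnt (0.85), Esrrb (0.82) and Lrp2 (0.81). Those most like Calb2 were Ephx1 (0.82), Corin (0.78), Dhrs7 (0.76), Gad1 (0.76) and Otof (0.76). Those most like Pcp4 were Tnc (0.96), Prss23 (0.94), Cdc42ep3 (0.93), S100b (0.92) and Htra1 (0.92). Those most like Calml4 were Cers4 (0.96), Slc44a4 (0.96), Ush1c (0.95), Cars (0.95) and Tdrd7 (0.95). Ush1c stands in the calmodulin list and the hair cell list as well. The 4 genes were left out of this search, and their correlations with each other are those given above.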

How the data were processed

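RNA of 64 pools of mouse inner ear or neighbouring tissue was labelled as biotinylated cRNA and hybridised to Affymetrix arrays, 1 array per pool. The authors deposited 1 intensity per probe set and array, which MAS5 gave, per the submitters' processing notes. Its version and scaling were not given in the sources used here. Platform annotation names a gene for most: 20380 of 22626 probe sets carry a single gene symbol, while the 691 with several symbols and the 1555 without any were left out.

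Signals were quantile normalised, taken as log2(signal + 16), and kept where at least 2 of 64 arrays reached their array's median, which left 14014 probe sets. A model with 1 coefficient for each of 32 groups was fitted with limma 3.58.1 in R 4.3.3 (32 residual degrees of freedom, eBayes with a mean-variance trend), and Benjamini-Hochberg adjusted p-values over all tested probe sets are two-sided. The script was tested on simulated data. Alternatives were pseudocounts of 1 and 64, no filter or 16 arrays, values as deposited, 1 probe set per gene, only the groups compared, the replicate number as a block, and leaving out each array, E11, E14 or the shorter dispase time.

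The 4 genes, the gene lists and the comparisons were chosen with earlier results of these data known, and the 6 comparisons of E15 with E14.5 and of organs at E15 after their values were seen. Named list genes are up to 4 called members with the largest change, and for each of the 4 genes the 5 genes with the highest Pearson correlation over 29 inner ear group means.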

Additional observations from a re-analysis of the deposited data

Results flagged for a closer look

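In all, 8 differences in trend between organs passed a test of the difference itself over E12.5 to E15, 12 arrays against 12 in each case, with limma adjusted p-values over 14014 probe sets. For the cochlea minus the utricle with ampullae these were Pcp4 (-1.56 log2, SE 0.39, adjusted p = 0.0084) and Calml4 (-1.58, SE 0.32, adjusted p = 0.000977). For the cochlea minus the saccule they were Calb1 (3.78, SE 0.27, adjusted p = 4.3e-13), Calb2 (-1.84, SE 0.24, adjusted p = 6.52e-07) and Pcp4 (-1.47, SE 0.39, adjusted p = 0.00975). For the saccule minus the utricle with ampullae they were Calb1 (-3.18, SE 0.27, adjusted p = 1.09e-10), Calb2 (1.52, SE 0.24, adjusted p = 6.21e-05) and Calml4 (-1.86, SE 0.32, adjusted p = 0.00019). Both Pcp4 differences missed the threshold at a pseudocount of 1 (adjusted p = 0.188 against the utricle with ampullae and 0.146 against the saccule) and without replicate 2 of the E15 cochlea (0.104 and 0.0955). The one against the saccule also missed it without replicate 2 of the E15 saccule (0.0599) and with only its own groups in the fit (0.0754). The 3 pairs of organs share arrays, so these differences are not independent of each other.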

How the results depend on the processing

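Over 2231 values of the 4 genes under alternative settings, 2183 kept their call, 39 lost it, 9 gained it and 0 reversed; 39 that passed in neither setting changed sign. Calls of the 4 genes between inner ear and surrounding tissue fell to 1 at a pseudocount of 64, against 2, and so did those in the surrounding tissue over time, 1 against 2. Of the 5 calls between E14.5 and E15, 2 were left at a pseudocount of 64 and 1 with only the groups of the comparison. Of the 8 organ differences at E15, 5 were left with only those groups and 5 with the filter of 16 arrays, which does not test Calb1. The 14 trends, 6 organ differences, 8 trend differences and 0 placode to vesicle calls stayed within 1.5 times under the settings that keep all arrays. Leaving out 1 array at a time gave 2 to 3 calls for inner ear against surrounding tissue, 0 to 0 for placode to vesicle, 13 to 15 trends, 6 to 7 organ differences, 6 to 8 trend differences, 2 to 2 for surrounding tissue, 3 to 5 for E14.5 to E15 and 7 to 8 at E15; the remaining array is then assumed to vary like the other groups.

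Over all probe sets a pseudocount of 64 called 0.466 to 0.667 times as many as the pseudocount of 16 in 24 of the 25 comparisons. With only the groups compared, 0 against 250 were called for the cochlea E15 step, 5 against 125 for the saccule step, 420 against 760 for placode to vesicle, 159 against 276 for the saccule minus utricle trend, and at E15 421 against 653 and 670 against 1063 for the cochlea minus the utricle and minus the saccule. Values as deposited called 1609 against 846 at E9 and 298 against 183 for the cochlea minus the vestibular organ, and a pseudocount of 1 called 306 there. Single calls that another setting ended were, at a pseudocount of 64, Calml4 in the cochlea to E12 (0.75), Calb2 in the saccule step (0.87), and Pcp4 in the cochlear step (0.91) and the saccule step (0.96); Pcp4 in the saccule step also had an adjusted p of 0.101 at a pseudocount of 1 and 0.0597 without the filter, and in the saccule minus utricle at E15 0.108 at a pseudocount of 1. At that pseudocount Pcp4 passed in inner ear minus surrounding tissue at E9.5 to E10.5 (-1.53), in the cochlea to E15 (1.25) and in the saccule minus utricle (-1.05). As deposited, the share of calls that were higher was 88.8% against 48.7% at E9, 76.0% against 45.0% at E9.5 to E10.5 and 67.6% against 53.9% at E11 to E15 for inner ear over surrounding tissue, 61.9% against 48.8%, 63.1% against 52.5% and 68.3% against 51.9% for the cochlear trends to E15 and E12 and the vestibular trend, and 12.8% against 41.5% for the cochlea minus the vestibular organ; medians of all probe sets moved to 0.35, 0.34, 0.14, 0.20, 0.08, 0.12 and -0.26 log2, and 0 of 100 calls of the 4 genes changed. Within the longer dispase time 637 against 1036 cochlear and 325 against 570 vestibular trends to E12 were called. With 1 probe set per gene, 9352 are tested and counts fall accordingly.

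Whether equal replicate numbers share litters is not stated in the labels and was not settled. The deviations of equally numbered arrays of a stage correlated above 0.1 in 19 of 23 pairs, up to 0.57. They correlated at -0.49 and -0.34 for the E15 saccule with the cochlea and with the utricle. Pools of equal number held equal counts of tissues in 12 of 22 organ pairs, all of them at E12.5 to E15. In 6 of these 12 the counts differed between the 2 replicates and still matched between the organs. If equal numbers share litters, organs of a stage are not independent samples. A replicate block left the calls of the 4 genes at 2, 0, 14, 6, 8, 2, 5 and 8, and counts over all probe sets at 1 to 1.48 times. The floor of 10, 2 arrays per group and 1 tested probe set per gene limit what can be read from dim stages.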
